A study of Mus musculus with 11 samples.

Results

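The 10 macrophage genes *Csf1r*, *Adgre1*, *Cd68*, *Mrc1*, *Cd163*, *Lyz2*, *Ms4a7*, *Aif1*, *Itgam* and *Mertk* were followed by RNA sequencing of whole lacrimal glands from male NOD mice. They were taken by name from the 19058 genes counted, and 10 of 10 had enough counts in WT glands to be among the 13937 genes tested. The 3 groups were WT NOD mice (n = 3), *Tlr7* KO NOD mice (n = 5) and *Ifnar1* KO NOD mice (n = 3), with 1 gland and 1 library for each mouse. The authors had removed a further *Ifnar1* KO gland that lay with the WT glands in principal component analysis and was as inflamed as they were. The *Ifnar1* KO mice were thus partly chosen by inflammation, which can widen every difference of this group from WT and from *Tlr7* KO glands. WT and *Tlr7* KO mice were 20 to 22 weeks old, and no age is given for the *Ifnar1* KO mice in the sources used here. All 3 groups share the NOD background, in which males spontaneously develop lymphocytic inflammation of the lacrimal gland. *Tlr7*, which encodes an endosomal receptor for single-stranded RNA, was disrupted by a CRISPR/Cas9 deletion of 2 bases in NOD embryos, and 1 such allele was bred as the strain. *Ifnar1*, which encodes a chain of the type I interferon receptor, was disrupted by the em16 allele in homozygous form. Both alleles are present in every cell of the mouse, so loss of the receptor in macrophages and in other cells cannot be told apart.

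Macrophages are resident phagocytes that clear dying cells and debris, and their number in an inflamed tissue grows through local division and through entry of blood monocytes. Growth factors acting on the receptor encoded by *Csf1r* keep them alive, and surface receptors such as those encoded by *Mrc1*, *Cd163* and *Mertk* bind sugars, haemoglobin complexes and dying cells. In inflamed exocrine glands they lie beside infiltrating B and T lymphocytes, and no transcript in the group belongs to macrophages alone. *Lyz2* and *Itgam* are also used by neutrophils and monocytes, *Aif1* by monocytes, and *Mertk* by endothelial and other cells.

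Libraries held 20512315 to 27174764 counts in WT, 24857275 to 28814250 in *Tlr7* KO and 25542645 to 26845375 in *Ifnar1* KO glands, and every macrophage gene was above 3 counts in every mouse, the lowest being 16 counts for *Aif1* in an *Ifnar1* KO gland. Levels are given as CPM, counts scaled to a common library size with the trimmed mean of M values (TMM) method, and a gene was called when edgeR's quasi-likelihood test gave a Benjamini-Hochberg adjusted p under 0.05 over the genes tested. Mean *Tlr7* was 2.39 ± 0.763 CPM (SD) in WT (n = 3), 0.778 ± 0.176 in *Tlr7* KO (n = 5) and 0.562 ± 0.289 in *Ifnar1* KO glands (n = 3), and mean *Ifnar1* was 13.5 ± 2.63, 9.56 ± 1.08 and 9.02 ± 0.648. A deletion of 2 bases removes no countable part of the transcript, so these levels do not test the *Tlr7* genotype. *Ifnar1* was lower than in WT in both knockouts, and the log2 difference between the knockouts was 0.09 (adjusted p = 0.725), so its level does not test the *Ifnar1* genotype either. The glands differed widely in leukocyte transcripts: *Ptprc*, which encodes the pan-leukocyte protein CD45, was at 66.3, 18.8 and 56.9 CPM in WT 1, 2 and 3, at 5.13 to 19.7 in *Tlr7* KO and at 1.47 to 8.56 in *Ifnar1* KO glands. WT 2 thus had the leukocyte transcript at about the level of the highest *Tlr7* KO gland. It was also the lowest WT mouse for 8 of the 10 macrophage genes (all but *Cd163* and *Mertk*), whereas *Ifnar1* KO 2 was the highest of its group for 10 of 10. The numbers of macrophage genes called, and those of many other lists, are therefore also given without these glands.

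In WT glands the 10 genes covered a wide range of levels. On the scale of CPM per kilobase of exon, which allows levels to be compared between genes, *Lyz2* stood at 151 ± 45.8 (SD, n = 3), followed by *Cd68* at 8.13 ± 4.02, *Aif1* at 4.99 ± 2.42, *Csf1r* at 2.81 ± 0.728 and *Adgre1* at 2.57 ± 0.7096. *Ms4a7* (1.41 ± 0.191), *Mertk* (1.12 ± 0.132), *Itgam* (0.834 ± 0.327), *Mrc1* (0.796 ± 0.263) and *Cd163* (0.541 ± 0.146) formed the lower end. Among neighbours in this order, *Lyz2* and *Cd68*, *Adgre1* and *Ms4a7*, and *Ms4a7* and *Mertk* differed by more than the larger of their SDs, and the others did not. In *Ifnar1* KO glands *Mertk* was the next after *Lyz2* and *Cd68* at 1.75 ± 0.136 CPM per kilobase, and *Ms4a7*, at 0.459 ± 0.257, stood next to *Cd163* at the bottom.

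Promoters of the genes that mark the extremes of the results are shown to give the sequence context of a gene that fell in both knockouts (*Aif1*), of one that passed the test in neither (*Mrc1*) and of the one that rose (*Mertk*). RefSeq promoters on GRCm38.p6 were found by name for 8 of the 10 genes, and *Csf1r* and *Adgre1* had no entry. *Ms4a7* was entered more than once, which gave 9 windows. For *Mertk*, *Cd68* and *Cd163* the first bases after the RefSeq start were found in no GENCODE transcript of the gene. Each line gives the 250 bases before a transcript start, 5′ to 3′ on the strand of the gene. Capitals mark GAGGAA, the core bound by the myeloid factor PU.1 (TTCCTC when on the other strand), or the core of the interferon-stimulated response element, which is GAAA, any 2 bases and GAAA again.
Aif1 (chr17:35176053-35176302, minus strand): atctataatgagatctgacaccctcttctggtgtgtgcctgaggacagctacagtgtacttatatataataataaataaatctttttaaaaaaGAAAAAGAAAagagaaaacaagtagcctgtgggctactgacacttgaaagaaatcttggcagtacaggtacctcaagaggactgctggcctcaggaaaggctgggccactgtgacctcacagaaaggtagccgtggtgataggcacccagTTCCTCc
Mrc1 (chr2:14229164-14229413, plus strand): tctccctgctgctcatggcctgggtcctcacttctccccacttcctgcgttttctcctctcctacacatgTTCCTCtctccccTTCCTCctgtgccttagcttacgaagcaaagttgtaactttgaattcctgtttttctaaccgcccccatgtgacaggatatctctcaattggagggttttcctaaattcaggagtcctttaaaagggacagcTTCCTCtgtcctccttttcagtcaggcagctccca
Mertk (chr2:128698665-128698914, plus strand): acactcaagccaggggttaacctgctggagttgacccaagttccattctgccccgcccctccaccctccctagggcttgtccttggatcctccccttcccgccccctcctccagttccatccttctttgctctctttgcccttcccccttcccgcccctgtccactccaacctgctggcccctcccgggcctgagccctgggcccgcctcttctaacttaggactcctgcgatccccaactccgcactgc
The PU.1 core was found on either strand in 4 of the 8 genes (*Aif1*, *Cd68*, *Itgam* and *Mrc1*). By window it was in 4 of 9, beside 23.3% of 32851 promoters of the same length. The interferon-stimulated core was found in *Aif1* only, among these 8 genes, 157 bases before its start, and in 2.98% of all promoters. A C/EBP core, TTGCNNAA, occurred in *Cd68* only and in 9.56% of promoters. TTCNNNGAA, TGCTGAC and TATAAA, the letters of a STAT site, a MAF half-site and a TATA box, matched none of the 8 genes and 7.02%, 3.81% and 12.4% of promoters. *Mrc1* held 3 PU.1 cores and *Mertk* held none of the 6 motifs. A match is a description of the letters in the window, not of a bound site.

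The first comparison asked how the macrophage genes differ when TLR7 is missing. *Aif1*, *Csf1r* and *Lyz2* were lower in *Tlr7* KO than in WT glands, *Mertk* was higher, and the other 6 genes did not pass the test. The call of 4 of 10 genes stands beside 32.5% of all genes called in the same comparison (17.1% lower and 15.3% higher in *Tlr7* KO), so the share called among the macrophage genes was near that of the whole transcriptome. Their median log2 fold change was -0.26, against -0.04 over all genes tested. In whole tissue, fewer macrophages and less RNA of a gene for each macrophage cannot be told apart.

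*Aif1* (ENSMUSG00000024397, GRCm38 chr17:35170991-35176068, minus strand) encodes the actin-binding calcium-binding protein IBA1, a standard histological marker of macrophages. Its levels were 10.02, 3.37 and 9.54 CPM in WT 1, 2 and 3, 3.10, 4.39, 1.48, 2.64 and 3.86 in *Tlr7* KO 1 to 5 and 0.919, 2.39 and 0.670 in *Ifnar1* KO 1 to 3. WT 2 lay within the range of the *Tlr7* KO glands, and the other two WT glands were above every knockout gland. *Aif1* fell 2.50-fold in *Tlr7* KO (log2 fold change -1.32, SE 0.407, adjusted p = 0.0378) and 5.87-fold in *Ifnar1* KO glands (log2 fold change -2.55, SE 0.592, adjusted p = 0.0333), the largest fall of the 10 genes in both comparisons. The WT and *Ifnar1* KO groups did not overlap. Both comparisons use the same 3 WT glands, so they are not independent of each other. The call in *Tlr7* KO was lost without the gene filter (adjusted p = 0.0573) and without WT 1, WT 3 or *Tlr7* KO 1, 3, 4 or 5 (adjusted p from 0.0557 to 0.133).

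*Csf1r* (ENSMUSG00000024621) encodes the receptor for the growth factors CSF1 and IL-34, on which most macrophages depend. It was at 19.5, 11.5 and 17.7 CPM in the WT glands, at 9.99, 12.3, 9.08, 10.4 and 8.93 in *Tlr7* KO and at 7.66, 10.1 and 5.99 in *Ifnar1* KO glands. The highest *Tlr7* KO gland exceeded WT 2, and every *Ifnar1* KO gland was below every WT gland. *Csf1r* fell 1.61-fold in *Tlr7* KO (log2 fold change -0.68, SE 0.169, adjusted p = 0.0147) and 2.09-fold in *Ifnar1* KO glands (log2 fold change -1.06, SE 0.251, adjusted p = 0.0325). Its exons share 873 bases with *Hmgxb3* on the opposite strand, which was not called in either comparison (log2 fold changes -0.06 and 0.22), and reads of that stretch could be shared between the genes.

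*Lyz2* (ENSMUSG00000069516, GRCm38 chr10:117277331-117282321, minus strand) encodes the lysozyme of macrophages, monocytes and neutrophils and made up 53.7% to 76.6% of the summed CPM of the 10 genes, depending on the mouse. Its levels were 266, 149 and 182 CPM in WT, 129, 143, 125, 127 and 146 in *Tlr7* KO and 51.4, 112 and 34.6 in *Ifnar1* KO glands. No knockout gland reached the lowest WT gland, and the 5 *Tlr7* KO glands were all above the 3 *Ifnar1* KO glands. *Lyz2* fell 1.49-fold in *Tlr7* KO (log2 fold change -0.57, SE 0.162, adjusted p = 0.0235) and 3.08-fold in *Ifnar1* KO glands (log2 fold change -1.62, SE 0.450, adjusted p = 0.0492). The first of these calls was lost in a single fit of 11 mice (adjusted p = 0.189) and without WT 1 or *Tlr7* KO 1, 3 or 4 (adjusted p from 0.0570 to 0.0890). The second is close to the threshold, and it was lost with RLE size factors (adjusted p = 0.0502), library-size scaling (adjusted p = 0.114), without the gene filter (adjusted p = 0.0713) and in the other count table (adjusted p = 0.0530), with log2 fold changes of -1.61, -1.96, -1.61 and -1.62.

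*Lyz2* has a near copy, *Lyz1*, the lysozyme best known from Paneth cells, and 422 of the 1286 stretches of 31 bases in *Lyz2* transcripts (32.8%) also occur in *Lyz1*. The 2 deposited count tables treat this pair very differently. For *Lyz2* the main table held 1.33 to 1.40 times the counts of the other table in every mouse. For *Lyz1* it held 1252 to 4677 counts a mouse where the other table held 12 to 81. In the main table *Lyz1* was higher in *Tlr7* KO glands (log2 fold change 1.59, adjusted p = 0.000516), in the other table it was at -0.10 (adjusted p = 0.850). The level of *Lyz1* is therefore uncertain, while *Lyz2* itself gave -0.57 (main table) and -0.57 (other table) for *Tlr7* KO and -1.62 and -1.62 for *Ifnar1* KO on the log2 fold scale.

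*Mertk* (ENSMUSG00000014361, GRCm38 chr2:128698956-128802894, plus strand) encodes a receptor tyrosine kinase through which phagocytes bind dying cells by the bridging proteins GAS6 and protein S. It was at 5.20, 5.15 and 4.18 CPM in WT, at 6.39, 6.04, 6.38, 7.08 and 7.50 in *Tlr7* KO and at 6.95, 8.11 and 7.71 in *Ifnar1* KO glands. Every knockout gland was above every WT gland, and the WT glands lay close together, WT 2 included. *Mertk* rose 1.38-fold in *Tlr7* KO (log2 fold change 0.46, SE 0.122, adjusted p = 0.0178) and 1.55-fold in *Ifnar1* KO glands (log2 fold change 0.63, SE 0.154, adjusted p = 0.0333), the only one of the 10 genes called higher in either comparison, but with scaling by library size alone its log2 fold changes were -0.03 (adjusted p = 0.920) and 0.34 (adjusted p = 0.563). That scaling moved the median of all genes from -0.04 to -0.54 in *Tlr7* KO and from -0.02 to -0.31 in *Ifnar1* KO glands, so *Mertk* stayed above the median gene under either scaling.

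**Figure D1:**
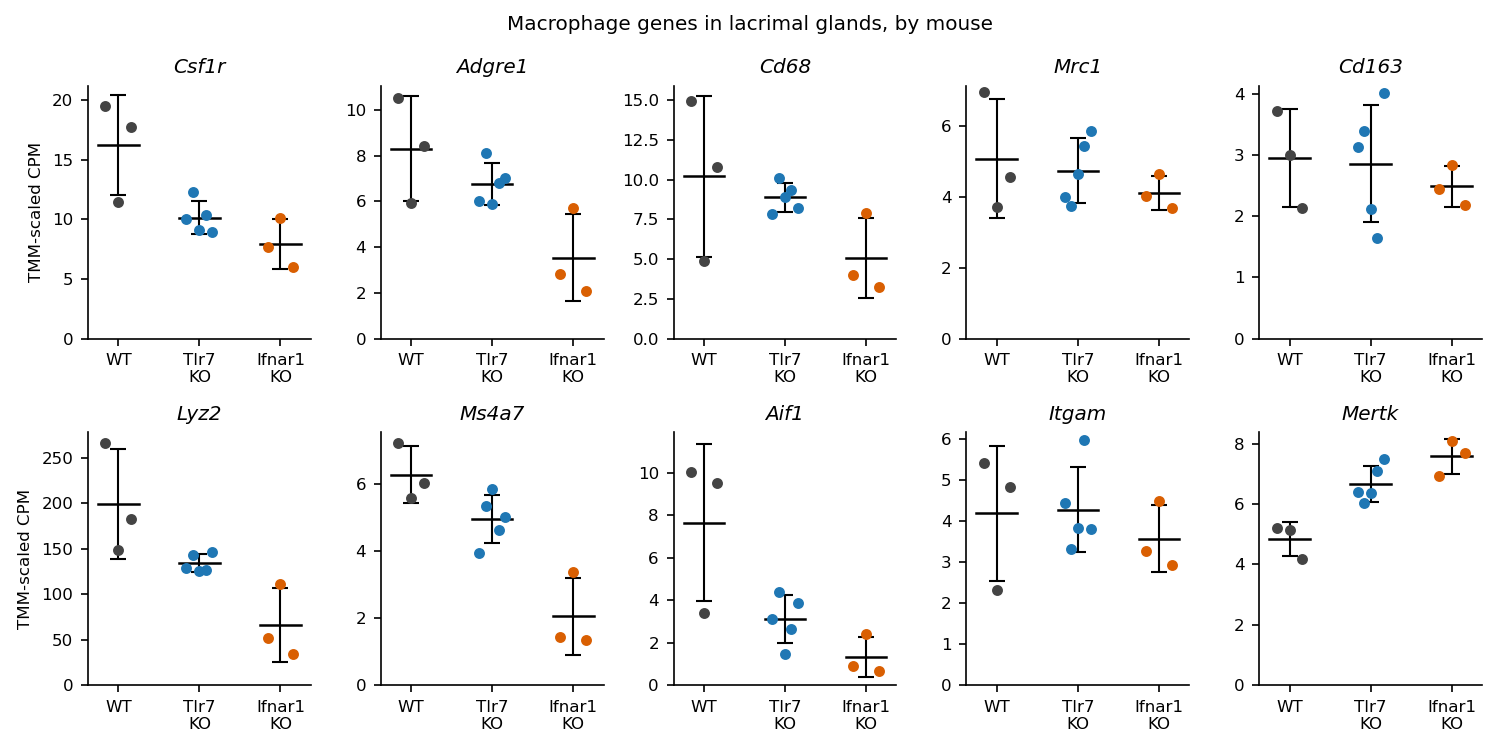
TMM-scaled CPM of the 10 macrophage genes in each mouse (points) with the group mean and SD (bars) for WT (n = 3), *Tlr7* KO (n = 5) and *Ifnar1* KO (n = 3) lacrimal glands, each panel with its own linear axis from 0. *Lyz2* falls from 149 to 266 CPM in WT to 34.6 to 112 in *Ifnar1* KO glands without overlap, whereas *Mertk* is above the WT glands in all 8 knockout glands on this scale, though not with library-size scaling, by which the WT glands reach 7.41 CPM and the knockout glands start at 5.15 (*Tlr7* KO) and 7.20 (*Ifnar1* KO).

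The second comparison asked the same of the type I interferon receptor. *Aif1*, *Ms4a7*, *Lyz2* and *Csf1r* were lower in *Ifnar1* KO than in WT glands and *Mertk* was higher. The 5 of 10 genes called stand beside 19.0% of all genes (12.1% lower and 6.92% higher), and the median log2 fold change was -1.05 against -0.02 over all genes tested. The groups did not overlap for 6 of 10 genes, the 5 called and *Adgre1*, beside 41.8% of all genes. In *Tlr7* KO glands 2 of 10 did not overlap with WT, *Lyz2* and *Mertk*, beside 30.8% of all genes.

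*Ms4a7* (ENSMUSG00000024672, GRCm38 chr19:11321039-11336146, minus strand) encodes a membrane protein of the MS4A family found mainly in macrophages. It was at 7.22, 5.57 and 6.04 CPM in WT, at 3.94, 5.35, 5.85, 4.61 and 5.02 in *Tlr7* KO and at 1.43, 3.36 and 1.34 in *Ifnar1* KO glands. The highest *Ifnar1* KO gland was below every gland of the other groups, and the *Tlr7* KO range reached into that of WT. *Ms4a7* fell 3.12-fold in *Ifnar1* KO glands (log2 fold change -1.64, SE 0.355, adjusted p = 0.0274), and its value in *Tlr7* KO was -0.34 (95% interval -0.67 to -0.02, adjusted p = 0.0985), or -0.87 with library-size scaling (adjusted p = 0.0267).

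*Adgre1* (ENSMUSG00000004730, GRCm38 chr17:57358691-57483527, plus strand) encodes F4/80, the classical surface marker of mouse macrophages. Its levels were 10.5, 5.95 and 8.45 CPM in WT, 6.01, 8.13, 5.89, 6.80 and 7.02 in *Tlr7* KO and 2.83, 5.72 and 2.09 in *Ifnar1* KO glands. The *Ifnar1* KO glands lay below every other gland, by a narrow margin for *Ifnar1* KO 2. The test was passed in neither comparison, with log2 fold changes of -0.30 (95% interval -0.70 to 0.09, adjusted p = 0.217) in *Tlr7* KO and -1.26 (95% interval -2.17 to -0.34, adjusted p = 0.0628) in *Ifnar1* KO glands. DESeq2 called the second (log2 fold change -1.25, adjusted p = 0.0142), and library-size scaling the first (log2 fold change -0.86, adjusted p = 0.0377).

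*Cd68* (ENSMUSG00000018774, GRCm38 chr11:69664213-69666153, minus strand), a glycoprotein of late endosomes and lysosomes in macrophages, was at 14.95, 4.89 and 10.8 CPM in WT, at 7.85, 10.1, 8.89, 9.35 and 8.24 in *Tlr7* KO and at 3.98, 7.92 and 3.27 in *Ifnar1* KO glands. WT 2 lay within the range of the *Ifnar1* KO glands and below all *Tlr7* KO glands. The values were -0.21 (95% interval -0.87 to 0.45, adjusted p = 0.610) in *Tlr7* KO and -1.04 (95% interval -2.18 to 0.09, adjusted p = 0.161) in *Ifnar1* KO glands. Without WT 2 they were -0.54 (adjusted p = 0.00760) and -1.38 (adjusted p = 0.0468), and without WT 1 the value in *Tlr7* KO was 0.17 (adjusted p = 0.677).

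The remaining 3 genes passed the test in no comparison. *Mrc1* (ENSMUSG00000026712, GRCm38 chr2:14229392-14332057, plus strand), the mannose receptor CD206 of tissue-resident and alternatively activated macrophages, ranged over 3.71 to 6.94 CPM in WT, 3.74 to 5.86 in *Tlr7* KO and 3.69 to 4.63 in *Ifnar1* KO glands. Its log2 fold changes were -0.11 (95% interval -0.60 to 0.38, adjusted p = 0.731) and -0.33 (95% interval -0.91 to 0.26, adjusted p = 0.375). *Cd163* (ENSMUSG00000008845, GRCm38 chr6:124304656-124330527, plus strand), the scavenger receptor for haemoglobin bound to haptoglobin, ranged over 2.13 to 3.73, 1.65 to 4.01 and 2.18 to 2.84 CPM. Its log2 fold changes were -0.05 (95% interval -0.71 to 0.61, adjusted p = 0.913) and -0.26 (95% interval -0.86 to 0.34, adjusted p = 0.489). *Itgam* (ENSMUSG00000030786, GRCm38 chr7:128062640-128118491, plus strand), the integrin chain CD11b, ranged over 2.32 to 5.41, 3.30 to 5.97 and 2.93 to 4.48 CPM, with 0.02 (95% interval -0.60 to 0.64, adjusted p = 0.967) and -0.27 (95% interval -1.03 to 0.50, adjusted p = 0.593). The groups overlapped for all 3 genes in both comparisons, and the lower ends of the intervals show how large a fall these mice could not distinguish from none. *Itgam* shares 3450 exon bases with *Gm49368*, which is in neither count table used here.

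**Figure D2:**
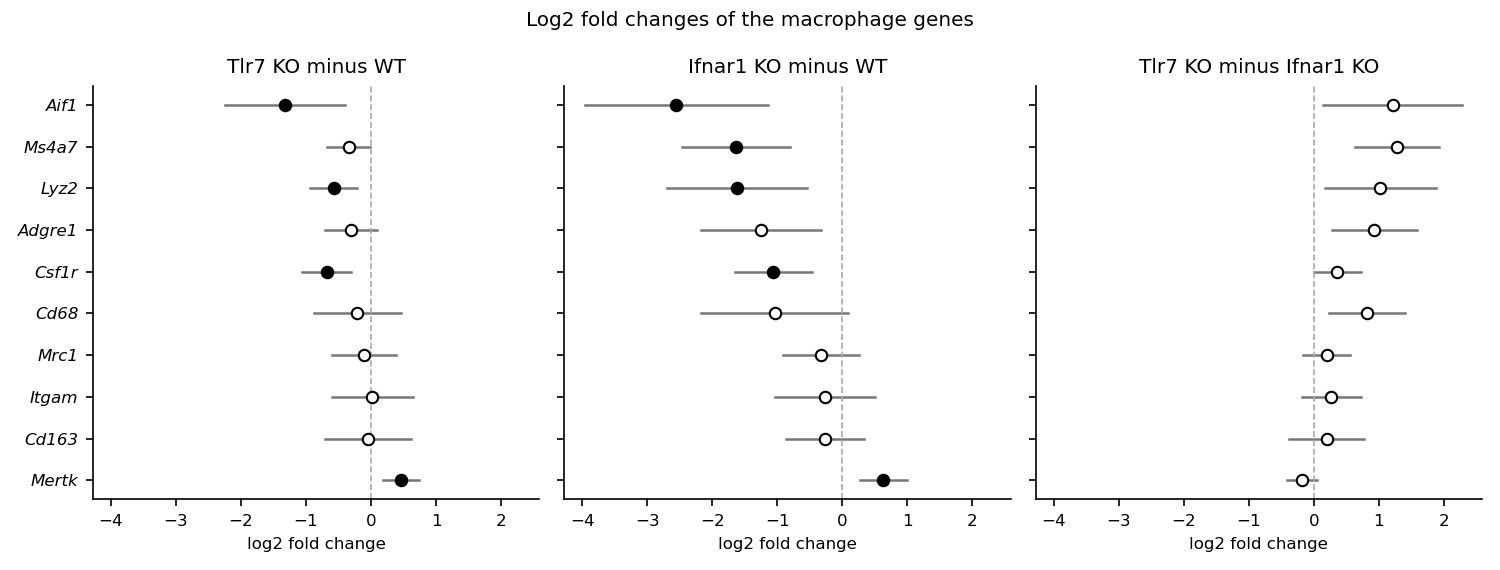
Log2 fold changes (points) with 95% intervals (lines) of the 10 macrophage genes in the 3 comparisons, ordered by their value in *Ifnar1* KO against WT. Filled points passed an adjusted p under 0.05, and they are 4 genes in *Tlr7* KO, 5 in *Ifnar1* KO and none between the knockouts, where 9 of 10 points lie above 0.

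The third comparison set the 2 knockouts against each other and so tests whether the macrophage genes differ between them. edgeR called none of the 10 genes (5 had an unadjusted p under 0.05), beside 1.51% of all genes (0.746% lower and 0.768% higher in *Tlr7* KO), whereas DESeq2 called 3, beside 4.14% of all genes. The median log2 difference, *Tlr7* KO minus *Ifnar1* KO, was 0.59 against 0.00 over all genes tested, and 9 of 10 estimates were higher in *Tlr7* KO. The values nearest the threshold were *Ms4a7* at 1.28 (95% interval 0.63 to 1.92, adjusted p = 0.0659), *Adgre1* at 0.93 (95% interval 0.27 to 1.58, adjusted p = 0.165), *Cd68* at 0.81 (95% interval 0.23 to 1.40, adjusted p = 0.177) and *Lyz2* at 1.02 (95% interval 0.17 to 1.88, adjusted p = 0.245). The 2 groups did not overlap for *Ms4a7*, *Adgre1* and *Lyz2*, which is 3 of 10 genes beside 10.7% of all genes. *Aif1* was at 1.21 (95% interval 0.15 to 2.27, adjusted p = 0.261), *Csf1r* at 0.36 (95% interval -0.00 to 0.72, adjusted p = 0.316) and *Mertk*, the one gene with the opposite sign, at -0.18 (95% interval -0.41 to 0.05, adjusted p = 0.434).

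The outcome of this comparison depended on the test and the count table used, and on *Ifnar1* KO 2. Without that gland 6 of 10 genes were called, each higher in *Tlr7* KO, with log2 differences of 1.94 for *Aif1*, 1.84 for *Ms4a7*, 1.64 for *Lyz2*, 1.46 for *Adgre1*, 1.29 for *Cd68* and 0.57 for *Csf1r* (adjusted p from 0.000223 to 0.0458, with 2 *Ifnar1* KO mice left), and the share of all genes called rose to 6.22%. *Mrc1*, *Cd163*, *Itgam* and *Mertk* were not called with or without it. *Ifnar1* KO 2 also had the highest *Ptprc* of its group, at 8.56 CPM against 3.85 and 1.47. The 3 DESeq2 calls were *Ms4a7* (adjusted p = 0.00103), *Adgre1* (adjusted p = 0.0247) and *Cd68* (adjusted p = 0.0306).

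The number of calls against WT also depended on single glands. Without WT 2, the gland with few leukocyte transcripts, 7 genes were called in *Tlr7* KO, with *Adgre1*, *Cd68* and *Ms4a7* added, and 6 in *Ifnar1* KO, with *Adgre1* and *Cd68* added and *Lyz2* lost (adjusted p = 0.0628). The share of all genes called was then 49.0% and 35.0%. Without WT 1 or without WT 3 there was 1 call in *Tlr7* KO (*Mertk* and *Lyz2* respectively), beside 20.3% and 19.5% of all genes, and none in *Ifnar1* KO, beside 0.168% and 0.682%, where 2 WT mice were then left. Without *Tlr7* KO 1, 3 or 4 the calls in *Tlr7* KO were *Csf1r* and *Mertk*, beside 23.3%, 23.2% and 24.7% of all genes. Without *Ifnar1* KO 1 or 3 no gene of the whole table was called in *Ifnar1* KO glands, so every call in that comparison depends on these mice. Without *Ifnar1* KO 2 there were 5 calls, with *Adgre1* added and *Mertk* lost (adjusted p = 0.0859), beside 12.3% of all genes. The direction of the genes called in either comparison was kept when any 1 mouse was left out.

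Lymphocyte genes, which mark the infiltrate itself, had larger median falls than the 10 macrophage genes in the same glands. Of 8 B cell markers tested, 8 were lower in *Tlr7* KO and 8 in *Ifnar1* KO glands, with median log2 fold changes of -3.28 and -4.22, and their summed level was 76.99 to 269 CPM in WT, 6.53 to 48.2 in *Tlr7* KO and 2.60 to 19.8 in *Ifnar1* KO glands. Of 9 T cell markers 7 were lower in each knockout, with medians of -1.95 and -2.99, but without WT 1 or without WT 3 there were 0 T cell calls in either knockout and 7 B cell calls in *Tlr7* KO. *Ptprc* fell by 2.31 (adjusted p = 0.0142) and by 3.38 (adjusted p = 0.0277) on the log2 scale, the first call being lost without WT 1 (adjusted p = 0.0618) or WT 3 (adjusted p = 0.0507). The second was lost in 8 of 16 alternatives, among them those without WT 1 (adjusted p = 0.1003) or WT 3 (adjusted p = 0.0885), library-size scaling (adjusted p = 0.0940) and no gene filter (adjusted p = 0.0617). The ratio of a macrophage gene to *Ptprc* was above every WT gland in every *Tlr7* KO gland for 7 of 10 genes and in every *Ifnar1* KO gland for 10 of 10, but so it was for 41.7% and 90.8% of all genes. None of the 30 ratios of a macrophage gene and a pair of groups passed a two-sided exact permutation test (smallest adjusted p = 0.0893). The smallest unadjusted p that 3 mice against 5 and 3 against 3 can give is 0.0179 and 0.1. The ratios of WT against *Ifnar1* KO glands therefore could not pass whatever their values. Adjustment over the 30 ratios left little room for the others, so no conclusion is drawn from this test.

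**Figure D3:**
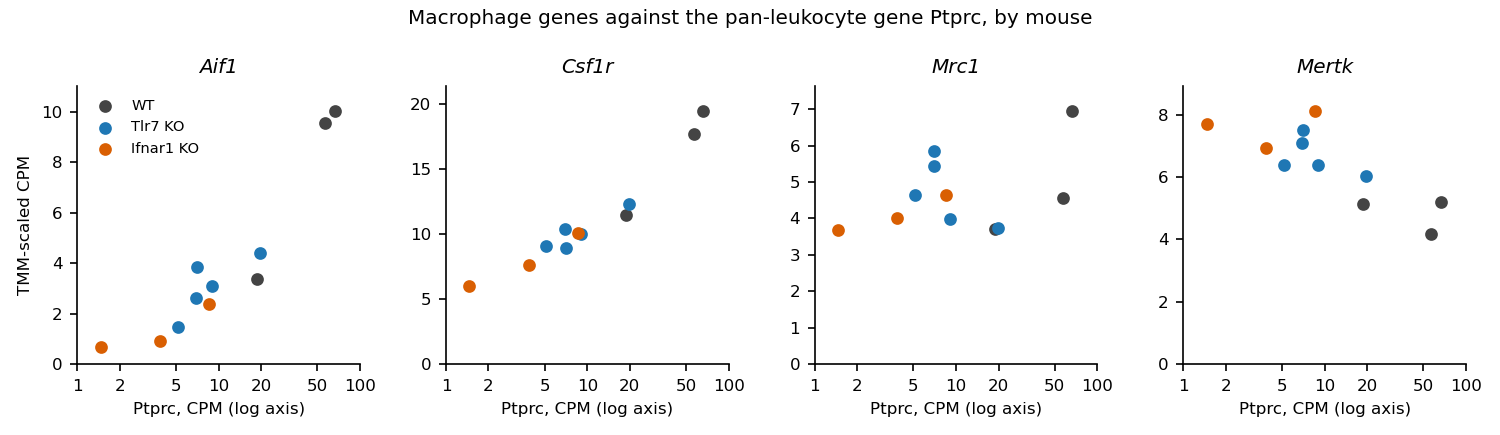
TMM-scaled CPM of *Aif1*, *Csf1r*, *Mrc1* and *Mertk* (linear axes from 0) against CPM of *Ptprc* (log axis) in each of the 11 mice, coloured by group. *Csf1r* runs from 5.99 CPM in the gland with the least *Ptprc* to 19.5 in the gland with the most, WT 2 lies among the knockout glands for *Aif1* and *Csf1r*. *Mrc1* is lowest and highest in the same glands (3.69 and 6.94 CPM), but its 3 groups overlap.

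Neutrophils share *Itgam* and *Lyz2*, and transcripts of their markers were few beside *Lyz2* but not beside *Itgam* (2.32 to 5.41 CPM in WT). Of 9 neutrophil markers, *Ly6g*, *Retnlg*, *Mmp8* and *Elane* were outside the main count table and had at most 4 counts in any mouse in the other table, and the summed level of the other 5 was 1.56 to 5.03 CPM in WT, 1.95 to 3.42 in *Tlr7* KO and 1.63 to 2.65 in *Ifnar1* KO glands. edgeR called none of the 3 that could be tested in either knockout (none and 1 at an unadjusted p under 0.05, and none and 1 by DESeq2). Dendritic cell markers were lower for 2 and 3 of 9 genes (medians -0.91 and -1.94) and natural killer cell markers for 3 and 5 of 5 (medians -1.74 and -4.09). Of all genes tested 17.1% were lower and 15.3% higher in *Tlr7* KO, and 12.1% and 6.92% in *Ifnar1* KO glands. The counts of these and the other lists stand beside those shares, and several are near them. Of 5 mast cell markers tested, *Kit* was lower in *Tlr7* KO (log2 fold change -0.59, adjusted p = 0.0327) and edgeR called none in *Ifnar1* KO glands (1 at an unadjusted p under 0.05 and none by DESeq2). Without WT 1 there were 0 mast cell calls in *Tlr7* KO, and without WT 2 *Kit* was also called lower in *Ifnar1* KO glands. Endothelial markers were lower for 2 and 1 of 7 genes, with 1 higher in *Tlr7* KO, fibroblast markers for 2 and 2 of 7, and epithelial markers for 4 and 2 of 10, with 2 higher in *Tlr7* KO. edgeR called none of 5 adipocyte markers in either knockout (none and 1 at an unadjusted p under 0.05, and none and 1 by DESeq2). Summed gland epithelial markers were at 625 to 738, 763 to 874 and 790 to 819 CPM. The part of these other cells in the macrophage results was not tested.

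Genes that control macrophage growth and identity were described from a list of 12. In *Tlr7* KO 5 were lower and in *Ifnar1* KO 7, none was higher, and the medians were -0.79 and -1.21. *Csf1*, the main ligand of the *Csf1r* product, had -0.51 (adjusted p = 0.0871) in *Tlr7* KO and fell by 1.05 (adjusted p = 0.0390) on the log2 scale in *Ifnar1* KO glands. In *Tlr7* KO it was called lower with library-size scaling (-1.10, adjusted p = 0.0175) and without WT 2 (-0.75, adjusted p = 0.00192). *Spi1*, which encodes PU.1, was lower in both, with -1.30 (adjusted p = 0.00728) and -2.47 (adjusted p = 0.0314), and *Maf*, a factor of mature macrophages and some T cells, had -0.94 (adjusted p = 0.00485) and -0.91 (adjusted p = 0.0367). With library-size scaling the *Ifnar1* KO calls of *Csf1* and *Maf* were lost (adjusted p = 0.0648 and 0.0732). *Gas6*, a ligand of the *Mertk* product, had -0.54 (adjusted p = 0.00826) in *Tlr7* KO and -0.55 (adjusted p = 0.0596) in *Ifnar1* KO, and the related receptor *Axl* had -0.87 (adjusted p = 0.0145) and -1.32 (adjusted p = 0.0272). In *Ifnar1* KO, *Gas6* was called lower with DESeq2 (adjusted p = 0.0410) and in a single fit of 11 mice (adjusted p = 0.00910). It was also called in the other count table (adjusted p = 0.0472) and without WT 2 (adjusted p = 0.00930). The *Tlr7* KO call of *Axl* was lost without WT 1 (adjusted p = 0.0535) or WT 3 (adjusted p = 0.0562). *Tyro3*, the other receptor of this family, was not called, with 0.18 (adjusted p = 0.655) and -0.10 (adjusted p = 0.855), though it was higher in *Tlr7* KO without WT 2. Of the 10 genes for uptake of dying cells 4 were lower and 1, *Mfge8*, higher in *Tlr7* KO (0.34, adjusted p = 0.0435, or -0.11 with library-size scaling), and 2 were lower in *Ifnar1* KO, where *Mfge8* had 0.24 (adjusted p = 0.309). The *Mfge8* call was lost in 11 more of 18 alternatives with its sign kept, among them RLE size factors (adjusted p = 0.0553), no gene filter (adjusted p = 0.0610) and leaving out WT 1, WT 3 or any *Tlr7* KO mouse.

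Partners of the surface receptors, with genes of iron handling, were lower for 5 of 8 genes tested in each knockout (medians -0.89 and -1.84). *Itgb2*, whose product pairs with that of *Itgam* to form the complement receptor CR3 and with other chains on lymphocytes, had -1.55 (adjusted p = 0.0167) and -2.33 (adjusted p = 0.0443), while *Itgam* was not called. *Tyrobp*, the signalling adaptor DAP12, had -0.84 (adjusted p = 0.0340) and -2.07 (adjusted p = 0.0239), *Sirpa* had -0.94 (adjusted p = 0.0277) and -1.82 (adjusted p = 0.0439) and its ligand *Cd47*, present on most cells, -1.11 (adjusted p = 0.00692) and -1.52 (adjusted p = 0.0229). The *Tlr7* KO calls of *Tyrobp* and *Sirpa* were lost without WT 1, WT 3 or *Tlr7* KO 1, 3 or 4 (adjusted p up to 0.129 and 0.106), that of *Sirpa* also without *Tlr7* KO 5 (adjusted p = 0.0567) and in a single fit of 11 mice (adjusted p = 0.0565), and that of *Itgb2* without WT 1 or 3 (adjusted p up to 0.0661). In *Ifnar1* KO glands the calls of *Itgb2* and *Sirpa* were lost with library-size scaling (adjusted p = 0.0969 and 0.0912), without the gene filter (0.0915 and 0.0841) and in the other count table (0.0516 and 0.0593). *Hp*, which encodes the haptoglobin bound by CD163, was the 1 gene of this list called higher in *Tlr7* KO, with 0.60 (adjusted p = 0.00860), or 0.16 with library-size scaling (adjusted p = 0.421), and had 0.60 (adjusted p = 0.0798) in *Ifnar1* KO glands. There it was called higher with DESeq2 (adjusted p = 0.0164), in a single fit of 11 mice (adjusted p = 0.00860) and without WT 2 (adjusted p = 0.0134).

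The 3 chains of complement C1q, made chiefly by tissue macrophages, were lower in both knockouts without overlap with WT: *C1qa* was at 65.0 ± 15.7 CPM in WT, 27.4 ± 5.13 in *Tlr7* KO and 13.3 ± 6.02 in *Ifnar1* KO glands (SD, n = 3, 5 and 3), with -1.25 (adjusted p = 0.00216) and -2.32 (adjusted p = 0.0226) on the log2 scale. *C1qb* had -1.11 (adjusted p = 0.00652) and -2.11 (adjusted p = 0.0238), and *C1qc* -0.9996 (adjusted p = 0.00916) and -1.91 (adjusted p = 0.0274). Of 15 phagosome and lysosome genes 6 were lower and 1 higher in *Tlr7* KO, and 8 were lower in *Ifnar1* KO. Those that fell in both included *Ctss* (-1.15 and -2.36, adjusted p = 0.0110 and 0.0319), a protease of antigen presentation that B cells also make, and the oxidase genes *Cybb* (-1.11 and -2.08, adjusted p = 0.0125 and 0.0285) and *Ncf1* (-1.99 and -2.50, adjusted p = 0.00804 and 0.0254), named after their values were seen. The *Ifnar1* KO call of *Ctss* was lost with library-size scaling (adjusted p = 0.0892) and without the gene filter (adjusted p = 0.0635), and that of *Cybb* with library-size scaling (adjusted p = 0.0535). The *Tlr7* KO call of *Cybb* was lost without WT 1 (adjusted p = 0.0505) or WT 3 (adjusted p = 0.0527). *Ctsd*, a protease of most cells, was the higher one (0.31, adjusted p = 0.0185, or -0.17 with library-size scaling). Its call was also lost without WT 1, WT 3, *Tlr7* KO 1 or *Tlr7* KO 4 (adjusted p from 0.0508 to 0.0774).

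Markers of tissue-resident macrophages were called in neither knockout. Of 10 such genes 7 could be tested, edgeR called none, and the medians were -0.02 and -0.25. *Cbr2*, the most abundant of them, was at 22.9 ± 11.4 CPM in WT, 24.1 ± 4.42 in *Tlr7* KO and 22.5 ± 1.60 in *Ifnar1* KO glands, *F13a1* at 8.17 ± 2.20, 8.42 ± 2.69 and 8.85 ± 0.819, *Cd209f* at 3.54 ± 1.96, 3.67 ± 1.26 and 2.21 ± 0.557, and *Folr2* at 2.70 ± 1.06, 2.44 ± 0.722 and 1.88 ± 0.378. At an unadjusted p under 0.05 the counts were none in *Tlr7* KO and 1 in *Ifnar1* KO, and DESeq2 called none and none. Without WT 2 there was 1 call in *Tlr7* KO (*Pf4*) and 4 in *Ifnar1* KO glands (*Lyve1*, *Folr2*, *Cbr2* and *Cd209f*), all lower.

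Markers of monocytes and recruited macrophages were lower for 1 of 10 genes in *Tlr7* KO and for 5 of the same 10 in *Ifnar1* KO glands, with 1 higher in each (medians -0.68 and -1.62). Without WT 2 the numbers lower were 8 and 7, so the contrast between 1 and 5 in these counts was not kept when that gland was left out. Without *Ifnar1* KO 2 the number in *Ifnar1* KO was 3 lower (*Plac8*, *Cd14* and *Fcgr1*) and 0 higher. *Plac8* was the abundant one among those lower in *Ifnar1* KO (-3.28, adjusted p = 0.0248), *Nr4a1*, an immediate early gene of many cells, was higher there (0.52, adjusted p = 0.0368, or 0.22 with library-size scaling, adjusted p = 0.723), and *Ace*, also an endothelial and epithelial enzyme, was higher in *Tlr7* KO (0.57, adjusted p = 0.0339, or 0.007 with library-size scaling, adjusted p = 0.987). The *Ace* call was also lost without *Tlr7* KO 1, 2, 3 or 4 (adjusted p from 0.0570 to 0.0691). Without *Tlr7* KO 1 this list had 0 calls in *Tlr7* KO against WT. Of these 10 genes 2 differed between the knockouts: *Ccr2*, the receptor that draws monocytes out of the bone marrow, was at 1.32 ± 0.681 CPM in *Ifnar1* KO and 4.35 ± 0.761 in *Tlr7* KO glands (1.71, adjusted p = 0.0210), and *Cx3cr1*, the fractalkine receptor, at 1.71 ± 0.358 and 3.76 ± 0.579 (1.13, adjusted p = 0.0184). *Fcer1g*, the common signalling chain of Fc receptors, also was higher in *Tlr7* KO (1.29, adjusted p = 0.0246). The groups did not overlap for any of these 3 genes. With 1 mouse left out the adjusted p reached 0.106 for *Ccr2*, 0.0713 for *Cx3cr1* and 0.115 for *Fcer1g* (each without *Ifnar1* KO 1), and in a single fit of 11 mice it was 0.231, 0.209 and 0.142. The call of *Fcer1g* was also lost in the other count table (adjusted p = 0.133). *Cx3cr1* and *Fcer1g* were named after their values were seen.

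Lipid-associated macrophage genes included 2 of the genes called between the knockouts. *Trem2*, a lipid receptor of macrophages that signals through DAP12, was at 1.53 ± 0.106 CPM in WT, 3.796 ± 0.791 in *Tlr7* KO and 1.49 ± 0.492 in *Ifnar1* KO glands. It rose in *Tlr7* KO (1.31, adjusted p = 0.00215, or 0.81 with library-size scaling, adjusted p = 0.0750) and had -0.06 (adjusted p = 0.907) in *Ifnar1* KO glands, and the direct difference was 1.35 (adjusted p = 0.0232). *Trem2* was named after its values were seen. *Lgals3*, which encodes galectin-3, also was higher in *Tlr7* KO than in *Ifnar1* KO glands (1.42, adjusted p = 0.0396), at 10.7 ± 0.664 against 3.99 ± 2.06 CPM, with 10.2 ± 3.46 in WT. *Apoe*, the most abundant gene of the list, fell in both knockouts (-0.53 and -1.25, adjusted p = 0.00414 and 0.0230), and its direct difference was 0.70 (adjusted p = 0.0527). Of the 9 genes on this list 1 was lower and 1 higher in *Tlr7* KO, 2 were lower in *Ifnar1* KO, and 2 were called between the knockouts. Without *Ifnar1* KO 2 the number lower in *Ifnar1* KO was 5 (*Gpnmb*, *Spp1*, *Apoe*, *Fabp4* and *Lgals3*). The direct call of *Trem2* was lost without *Tlr7* KO 1, 4 or 5 or *Ifnar1* KO 1 or 3 (adjusted p up to 0.0894), and that of *Lgals3* in 12 of 18 alternatives, with an adjusted p up to 0.182 (without *Ifnar1* KO 1).

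Activation genes were lower for 4 of the 10 tested in *Tlr7* KO glands and 3 in *Ifnar1* KO glands (medians -1.08 and -2.01), and for 0 in either knockout without WT 1 or without WT 3. *Cd40*, a costimulatory receptor that B cells also carry, had -1.69 (adjusted p = 0.0234) and -2.91 (adjusted p = 0.0418), and *Cd86* had -1.40 (adjusted p = 0.0251) and -0.52 (adjusted p = 0.349). *Retnla*, a gene of alternative activation, was not called, with -0.85 (adjusted p = 0.254) in *Tlr7* KO and -1.57 (adjusted p = 0.0995) in *Ifnar1* KO glands.

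Counts on these lists moved with single glands. Without WT 1 the calls in *Tlr7* KO were 0 for activation, NK cell and fibroblast genes, 2 for phagosomes and lysosomes, 2 for receptor partners, 1 for uptake of dying cells, 4 for growth and identity and 3 for C1q, beside 20.3% of all genes, and in *Ifnar1* KO there was 0 on every list, beside 0.168%. Without WT 3 they were alike, with 3 for phagosomes and lysosomes and 3 for growth and identity, and in *Ifnar1* KO there was 0 on every list but the epithelial markers (1 call). Without WT 2, with 49.0% and 35.0% of all genes called, the genes lower in *Tlr7* KO and in *Ifnar1* KO were 11 and 10 for growth and identity, 7 and 6 for activation, 8 and 8 for phagosomes and lysosomes (3 higher in *Tlr7* KO), 4 and 5 for uptake of dying cells, 6 and 6 for receptor partners, 3 and 2 for lipid-associated genes, and 3 and 3 for C1q. Dendritic cell markers were then lower for 5 and 7 genes, fibroblast markers for 4 and 5, B cell markers for 8 and 8, T cell markers for 8 and 9, NK cell markers for 4 and 5, endothelial markers for 2 and 2 and epithelial markers for 4 and 4, and *Csf3r*, the 1 neutrophil marker still tested, was lower in both. Without *Ifnar1* KO 2, with 6.22% of all genes called, the genes higher in *Tlr7* KO than in *Ifnar1* KO were 3 of 3 for C1q, 6 for lipid-associated genes, 6 for phagosomes and lysosomes, 5 for monocytes, 5 for growth and identity and 4 for receptor partners. Also called were *Lrp1* and *Msr1* (higher) and *Ctsl* (lower). Markers of other cells called higher in *Tlr7* KO were *Ncr1* and *Klra8* (2 of 5 NK cell markers), *Blk*, *Bst2* and *Csf3r*. Against WT without that gland, beside 12.3% of all genes, *Ifnar1* KO glands had 6 growth and identity genes lower and 6 receptor partners. Also lower were 7 phagosome and lysosome genes, 8 T cell markers and 1 fibroblast marker. Tissue-resident markers had no call between the knockouts with or without that gland.

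**Figure D4:**
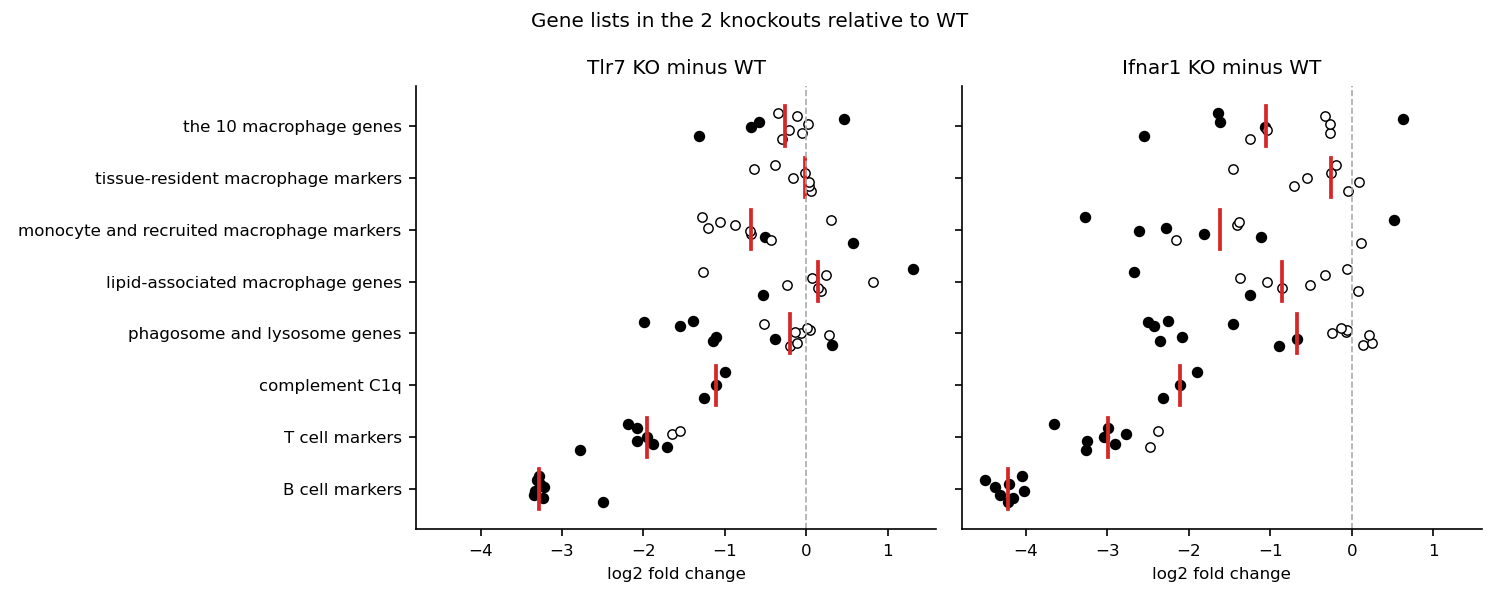
Log2 fold changes of single genes (points, filled where the adjusted p is under 0.05) and their median (red line) for the 10 macrophage genes and 7 other lists, in *Tlr7* KO and *Ifnar1* KO against WT. The B cell medians of -3.28 and -4.22 and the C1q medians of -1.11 and -2.11 lie further from 0 than those of the 10 macrophage genes, -0.26 and -1.05.

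Within the group, patterns over the 11 mice were compared by the root mean square difference of centred log2(CPM + 1), as a description. *Adgre1* and *Ms4a7* lay nearest to each other (0.192), and *Ms4a7* had no nearer gene than *Adgre1* among 11494 genes whose mean reached 1 CPM. *Cd68*, *Csf1r* and *Lyz2* also had *Adgre1* as their nearest member (0.197, 0.264 and 0.272), and *Aif1* had *Lyz2* (0.391). Among all these genes *Ms4a7* ranked 8 for *Adgre1*. *Adgre1* ranked 9 for *Cd68*, 12 for *Lyz2* and 695 for *Csf1r*, and *Lyz2* ranked 424 for *Aif1*. *Mrc1* and *Itgam* were each other's nearest members (0.215), but *Itgam* ranked 387 of 11494 genes for *Mrc1* and *Mrc1* ranked 92 for *Itgam*, so many genes outside the group lay nearer. *Cd163* and *Mertk* also had *Mrc1* as their nearest member (0.318 and 0.343), but it ranked only 3082 and 7545 for them. *Mertk* and *Aif1* were farthest apart (1.02). Outside the group, the genes nearest to the mean pattern of the 10 were *Rab7b* (0.105), *Ctsb* (0.117), *Atp6v0e2* (0.119), *Eml2* (0.126) and *Cd93* (0.132), of which *Ctsb* encodes a lysosomal protease.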

How the data were processed

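RNA of whole lacrimal glands from 11 mice was sequenced by the authors on an Illumina HiSeq instrument, and transcript abundances from salmon were summed to genes with tximport. The main table deposited by the authors holds the resulting estimated counts as whole numbers for 19058 genes. Though named as normalized, its library totals differ, and its values were treated as counts. The authors also deposited another table of counts (39017 genes, HISAT2 2.1.0 and mm10 in the submitters' processing notes), which served as an alternative, with 12233586 to 16621073 counts a library. Reads could be shared between near copies in the first table. In 1 column no sample was matched, and it was not used. Replicates are separate mice, p-values measure the spread between these mice only, and no batch is labelled.

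Genes with at least 30 counts summed over WT mice were tested with edgeR 4.0.16 (R 4.3.3, limma 3.58.1) in separate two-sided quasi-likelihood fits for each pair of groups, with TMM scaling and robust dispersion. Intervals are 95% from the fitted standard error. DESeq2 1.42.0, other scalings, other filters, the second table, a single fit of 11 mice, a stricter threshold, replicate number as a block and each mouse left out were alternatives. The code was tested on simulated data. The macrophage genes and 19 other lists were chosen with earlier results of these data known. Named besides them are the 4 most abundant genes of each list or a selection of these, genes called against most of their list, and the 5 genes nearest in pattern. Others are said to be named after their values were seen: in addition to those marked, *Spi1*, *Itgb2*, *Fcer1g*, *Csf3r*, *Pf4*, *Lyve1*, *Tyro3* and those named only for a gland left out were. Gene positions are GENCODE on GRCm38, and 18708 of 19058 identifiers matched.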

Additional observations from a re-analysis of the deposited data

How the results depend on the processing

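The number of macrophage genes called, 4 in *Tlr7* KO, 5 in *Ifnar1* KO and 0 between the knockouts, was 0 against WT in both knockouts at an adjusted p under 0.01, where 13.5% of all genes were called in *Tlr7* KO and 0.00718% in *Ifnar1* KO. With library-size scaling it was 5 in *Tlr7* KO, all lower, with *Adgre1* and *Ms4a7* gained and *Mertk* lost, and 2 in *Ifnar1* KO, beside 31.6% and 7.16% of all genes. Between the knockouts it was 3 with DESeq2 and 1 in the other count table (*Ms4a7*), beside 4.14% and 1.56% of all genes. Leaving out 1 mouse in turn gave 1 to 7 calls in *Tlr7* KO, 0 to 6 in *Ifnar1* KO and 0 to 6 between the knockouts, and the cause was not tested. Replicate numbers do not pair the mice: same-numbered mice of WT and *Tlr7* KO had correlations of their deviations of -0.14, -0.46 and -0.04, and those of WT and *Ifnar1* KO -0.15, -0.47 and -0.38. Those of the knockouts had 0.065, 0.33 and 0.19, and *Tlr7* KO 1 did not correlate best with its own number. With replicate number as a block the calls were 0, 0 and 4, and 17, 0 and 541 of all genes were called.

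Signs turned in these cases. In *Tlr7* KO, library-size scaling gave -0.55 for *Itgam*, -0.032 for *Mertk*, -0.11 for *Mfge8* and -0.17 for *Ctsd*. *Itgam* was also at -0.0052 with edgeR's filterByExpr, at -0.055 with the block and negative without WT 2 or *Tlr7* KO 4. *Lyz1* was at -0.10 in *Tlr7* KO and -0.22 in *Ifnar1* KO glands in the other count table. Over the 8 mice left out in turn, *Cd68* ranged from -0.54 to 0.17, *Mrc1* from -0.29 to 0.19, *Cd163* from -0.24 to 0.16 and *Itgam* from -0.26 to 0.24, each upper end being reached without WT 1. In *Ifnar1* KO, *Mfge8* was at -0.021 with library-size scaling and *Trem2* ranged from -0.35 to 0.12 over the mice left out. Between the knockouts, library-size scaling gave -0.0044 for *Mrc1* and -0.026 for *Cd163*. Of the genes called, 97.3% were lower in *Tlr7* KO with library-size scaling against 52.8%, and 95.1% against 63.6% in *Ifnar1* KO. Between the knockouts 68.3% of called genes were lower in *Tlr7* KO, against 49.3%. With 3 mice in 2 of the groups, differences the size of the wider intervals could not be resolved.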
